A study of Mus musculus with 2 samples.

Results

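The SHANK and HOMER proteins form the deep scaffold of the excitatory postsynapse. Their 6 genes, Shank1, Shank2, Shank3, Homer1, Homer2 and Homer3, were chosen by symbol from the transcript tables and linked to the gene tables by gene identifier. They are 6 of 55536 annotated genes and carry 50 annotated transcripts. The tissue was left cerebral cortex. It came from female C57BL/6 by CAST first-generation hybrids (strain label B6CASTF1/J) at 25 days of age, and total RNA was sequenced from 300 ng a library with synthetic ERCC RNAs added. The 2 libraries, replicates 1 and 2, form a single group, and the labels name no allele, treatment or agent that differs between them. The labels give them different animal numbers but the same donor identifier. They are taken here as different animals on the animal numbers, and otherwise the spread covers preparation only.

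SHANK proteins are multidomain scaffolds. Their PDZ domain holds the DLGAP (SAPAP) proteins that link them to PSD-95 and its receptors, a proline-rich stretch is bound by HOMER and cortactin, and a SAM domain joins SHANK molecules into sheets. HOMER proteins carry an EVH1 domain at the amino end, which binds proline-rich motifs in SHANK, group I metabotropic glutamate receptors, IP3 receptors and ryanodine receptors. Long HOMER proteins add a coiled coil that joins them into tetramers, so that they cross-link their partners. The Homer1 gene also makes short forms, Homer1a and Ania-3, that end soon after the EVH1 domain. They lack the coiled coil, are induced by neuronal activity as immediate early transcripts, and compete with the long forms for their partners.

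The Homer1 transcripts below share exons 2 to 5 and part after them. On mm10, exons 2 to 5 hold 522 bases that were identical in the 5 transcripts below, and exon 5 ends at chr13:93356079. The last 24 bases of that exon, chr13:93356056-93356079 on the plus strand, are given in lower case. The coding bases that follow are in capitals, because the coding sequences part within them. Homer1-202 also differs before exon 5 ends, as its coding sequence has 575 bases up to there. Homer1-203, Homer1-204, Homer1-206 and Homer1-207 have 527. The sequences were read from the GENCODE M21 transcripts.
Homer1-202 (long): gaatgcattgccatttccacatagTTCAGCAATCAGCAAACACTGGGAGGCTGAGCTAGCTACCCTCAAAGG
Homer1-203 (long, with the small exon): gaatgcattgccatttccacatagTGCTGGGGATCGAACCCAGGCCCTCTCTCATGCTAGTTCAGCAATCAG
Homer1-207 (short): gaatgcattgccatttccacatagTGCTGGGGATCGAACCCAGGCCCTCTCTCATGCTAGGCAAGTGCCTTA
Homer1-204 (Homer1a): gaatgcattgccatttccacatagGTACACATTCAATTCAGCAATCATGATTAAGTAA
Homer1-206 (Ania-3 type): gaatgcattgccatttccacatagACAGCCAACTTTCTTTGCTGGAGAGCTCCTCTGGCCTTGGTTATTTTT
Homer1-202 splices to 93387524. Homer1-203 first takes a 36-base exon at 93386345-93386380 and then continues as Homer1-202 does. Homer1-207 enters the same small exon, reads past its end and stops after 52 coding bases. Homer1-204 does not splice: it reads on from 93356080, codes 31 more bases, and is shown through its stop codon. Homer1-206 splices to 93366278 and codes 172 more bases.

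Levels are given in TPM, a unit per transcript length and library size, from the deposited alignment-based tables unless stated. Some are also given from a second deposited quantification, made directly from the FASTQ reads. Annotated genes took 31191535 and 27079700 expected counts in replicates 1 and 2. The excitatory neuron markers Slc17a7, at 595.6 and 639.2 TPM, and Nrgn, at 992.07 and 1063.34 TPM, were detected, meaning at least 1 TPM in both libraries. Markers of myelinating oligodendrocytes summed to 1508.01 and 2374.71 TPM, with 4 of 8 at least 1.5-fold higher in replicate 2. Markers of striatal neurons summed to 563.17 and 379.82 TPM, with 6 of 9 at least 1.5-fold higher in replicate 1. Over 11095 protein-coding genes, 1.22% were 1.5-fold apart in either direction. Choroid plexus markers summed to 100.32 and 6.83 TPM, most of it Ttr at 96.03 and 4.79 TPM. In such tissue libraries fewer cells of a type and less RNA per cell cannot be told apart.

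Shank1 was the most abundant of the 6 genes. Its level was 256.11 TPM in replicate 1 and 299.74 TPM in replicate 2, a mean of 277.9 ± 30.9 (SD, n = 2). That placed it above 98.6% of the 12933 detected nuclear protein-coding genes, whose median was 16.02 TPM. Shank1 (ENSMUSG00000038738.15) lies at chr7:44310253-44360572 on the plus strand.

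Homer1, the main cortical HOMER gene, came next at 162.26 and 143.68 TPM (153.0 ± 13.1, SD, n = 2; above 96.3% of detected genes). Its annotation, ENSMUSG00000007617.18, spans chr13:93299635-93405129 on the plus strand. Shank3, whose loss causes Phelan-McDermid syndrome in people, stood at 105.9 and 109.05 TPM (107.5 ± 2.23, SD, n = 2). The Shank3 gene, ENSMUSG00000022623.16, occupies chr15:89499623-89560261 on the plus strand. Shank2 (ENSMUSG00000037541.21, chr7:144001928-144424494, plus strand) was at 64.51 and 73.65 TPM, or 69.1 ± 6.46 (SD, n = 2). These 4 genes did not overlap in level: the lowest library of each lay above the highest library of the next.

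Homer2 was at 29.33 and 34.09 TPM (31.7 ± 3.37, SD, n = 2), above 71.7% of detected genes. It lies on the minus strand at chr7:81600481-81707527 (ENSMUSG00000025813.14). Homer3 (ENSMUSG00000003573.15, chr8:70282827-70294361, plus strand), a form best known from cerebellar Purkinje cells, was at 2.84 and 5.38 TPM, from 116 and 150 expected counts. Its mean of 4.11 ± 1.80 TPM (SD, n = 2) was above 16.4% of detected genes. Of 6 cerebellar neuron markers, Car8 and Cbln1 were detected, and the list summed to 7.62 and 10.49 TPM. The granule and Purkinje cell markers Gabra6 and Pcp2 had at most 1 count in either library. The part of cerebellar RNA in the Homer3 level was not tested.

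The order from Shank1 through Homer1, Shank3, Shank2 and Homer2 to Homer3 was the same in both libraries and both quantifications. Neighbours in it were apart by more than the spread between the libraries. The FASTQ-based means were higher for every gene, at 499.5, 259.6, 177.8, 100.8, 51.1 and 7.97 TPM in that order. The median of the detected genes was higher there too, at 24.9 TPM against 16.02 TPM. In CPM, counts scaled to the library with no correction for length, Homer1 kept its place in replicate 1. It fell behind Shank3 and Shank2 in replicate 2, so in that library its place rests on the correction for length.

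**Figure D1:**
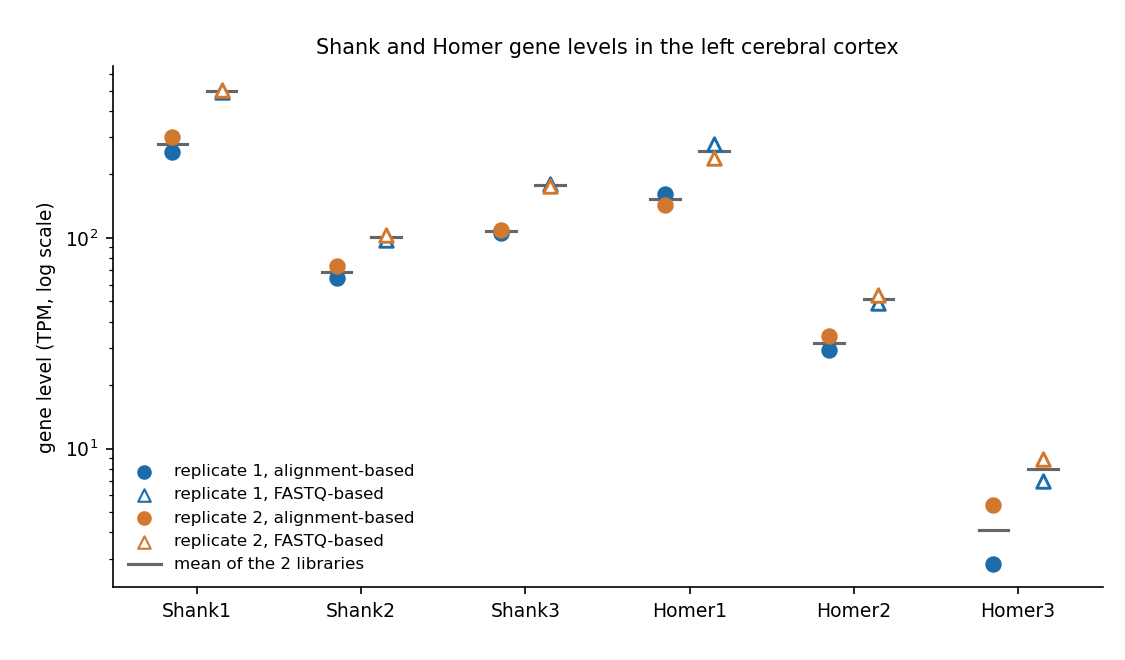
Level of the 6 genes in TPM on a log scale, with filled circles for the alignment-based table, open triangles for the FASTQ-based table, colour for the library and a grey line at the mean of the 2 libraries. Shank1 lies highest near 277.9 TPM and Homer3 lowest near 4.11 TPM in the alignment-based table, and the order is the same in the FASTQ-based table.

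Shank1 made up 61.1 ± 1.47% of the summed SHANK TPM, Shank3 23.7 ± 1.57% and Shank2 15.2 ± 0.100% (SD, n = 2). Shank1 exceeded Shank2 by a log2 TPM ratio of 1.99 in replicate 1 and 2.02 in replicate 2, 4.02-fold on average. It exceeded Shank3 by 1.27 and 1.46, or 2.58-fold. The Shank3 over Shank2 ratio was smaller, at 0.72 and 0.57 on the log2 scale, which is 1.56-fold. With raw counts scaled to the library and no correction for length, the Shank3 over Shank2 ratio was 0.03 on the log2 scale. That pair is thus apart only per length. Of Shank3 TPM, 19.2% was in transcripts with no coding sequence used and 13.7% in a model with an incomplete one. These held 3.71% and 1.75% of its counts. In Shank2 such transcripts held 3.52% and 0% of TPM. Their part in the Shank3 over Shank2 ratio was not tested.

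Within the other family, Homer1 held 81.0 ± 3.54% of the summed TPM, Homer2 16.8 ± 2.49% and Homer3 2.20 ± 1.04% (SD, n = 2). Homer1 exceeded Homer2 by 2.47 and 2.08 on the log2 scale, 4.83-fold on average. The Homer1 over Homer3 ratio was 5.84 and 4.74, or 39.1-fold, and the Homer2 over Homer3 ratio 3.37 and 2.66, or 8.09-fold. Of the 6 pairs within families, 5 were at least 2-fold in both libraries, and so they were in the FASTQ-based table, without length correction and with 1 TPM added. No pair changed direction in any of these.

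The SHANK genes together reached 426.52 and 482.44 TPM and the HOMER genes 194.43 and 183.15 TPM. SHANK exceeded HOMER 2.40-fold (log2 ratio 1.27 ± 0.19, SD, n = 2). That ratio was higher in replicate 2, where Shank1 was higher and Homer1 lower than in replicate 1.

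Transcripts were classed from the annotation by their coding length. Long means a complete coding sequence of at least 75% of the longest of the gene, and short means a complete one below that. Models with a missing start or end are called incomplete, and transcripts with no coding sequence used (retained introns, processed transcripts, decay targets) are called other. The 50 transcripts fell into 16 long, 12 short, 4 incomplete and 18 other. Homer1 had 8 of the 12 short ones.

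Short coding transcripts led in Homer1 in both libraries. Its short forms summed to 107.04 TPM in replicate 1 and 85.81 TPM in replicate 2, against 55.23 and 57.87 TPM for its long forms. The short share was 66.0% and 59.7%, a mean of 62.8 ± 4.41% (SD, n = 2). In expected counts it was 66.6% (Wilson 95% interval 65.8 to 67.5%) and 60.01% (59.0 to 61.0%). The FASTQ-based share was 66.9 ± 2.61%. In sum the long forms were level between the libraries, and the summed short forms differed.

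The long forms rested on 2 transcripts, with Homer1-203 above Homer1-202 in both libraries and both quantifications. Homer1-203, 366 residues and with the small exon, stood at 31.13 and 32.23 TPM. Homer1-202, 370 residues and with a separate first exon that starts at 93308034, stood at 24.10 and 25.64 TPM. The third long model, Homer1-201 of 354 residues, had 0 counts in both libraries and in both quantifications. As the reads were split, the small 36-base exon was in 56.4% and 55.7% of long Homer1 TPM. By the FASTQ-based table it was in 57.7% and 54.8%. Homer1-202 also differs from Homer1-203 in its first exon and in a longer 3′ end. It has 1666 bases in no other Homer1 transcript, and Homer1-203 has 0. Reads of those ends and reads that skip the small exon cannot be told apart, so use of that exon was not tested.

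Homer1a, Homer1-204, codes 186 residues. Its level was 41.85 TPM in replicate 1 and 33.51 TPM in replicate 2, from 4889 and 3287 expected counts, and it made up 24.6 ± 1.75% of Homer1 TPM (SD, n = 2). Of its bases 4383 are in no other Homer1 transcript, all of them after the fork shown above. Of the 4353 stretches of 31 bases in that end, 31 also occur in transcripts of other genes on the same strand. Those transcripts belong to 1481 genes. On the opposite strand 29 of the stretches occur in other genes. Homer1a alone was thus 0.758 and 0.579 of the long forms in TPM.

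The Ania-3 type transcripts, Homer1-205 (203 residues) and Homer1-206 (233 residues), share a last exon that ends at 93367134. Together they were at 12.91 and 7.64 TPM. The members of the pair moved in opposite directions in the alignment-based table. Homer1-206 was at 10.40 and 3.50 TPM, from 537 and 152 expected counts, and Homer1-205 at 2.51 and 4.14 TPM, from 74.8 and 103.7. The FASTQ-based table gave 21.5 and 11.3 TPM for Homer1-206, again higher in replicate 1, and 1.88 and 2.36 TPM for Homer1-205.

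The leading Homer1 transcript in both libraries and in both quantifications was neither Homer1a nor a long form but Homer1-207. It codes 193 residues and stood at 50.53 and 41.92 TPM, 30.2 ± 1.39% of the gene (SD, n = 2). The FASTQ-based levels were 73.2 and 59.9 TPM. Its annotation joins the most upstream leader of these coding transcripts to the end in the small exon, and 709 of its bases are in no other Homer1 transcript: 345 in the leader and 364 after the small exon. None of the 334 stretches of 31 bases in its 3′ end, nor of the 315 in its leader, occurs in a transcript of another gene. The tables give 1 abundance for the transcript, so reads of the leader and reads of the 3′ end cannot be told apart. Without Homer1-207, an alternative chosen after the data were seen, the short share of Homer1 fell to 46.9%.

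The remaining short models were low or differed between the tables. Homer1-208 (191 residues) was at 1.75 and 2.74 TPM. Homer1-209, Homer1-210 and Homer1-211, which skip shared exons, had 0 counts in the alignment-based table. The FASTQ-based table put their sum at 32.3 and 36.6 TPM, but assigned it differently in each library: Homer1-210 was at 12.5 and 33.6 TPM and Homer1-211 at 15.7 and 0 TPM. Homer1-209 was at 4.11 and 3.04 TPM there. Which of these exist in the tissue was not tested.

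**Figure D2:**
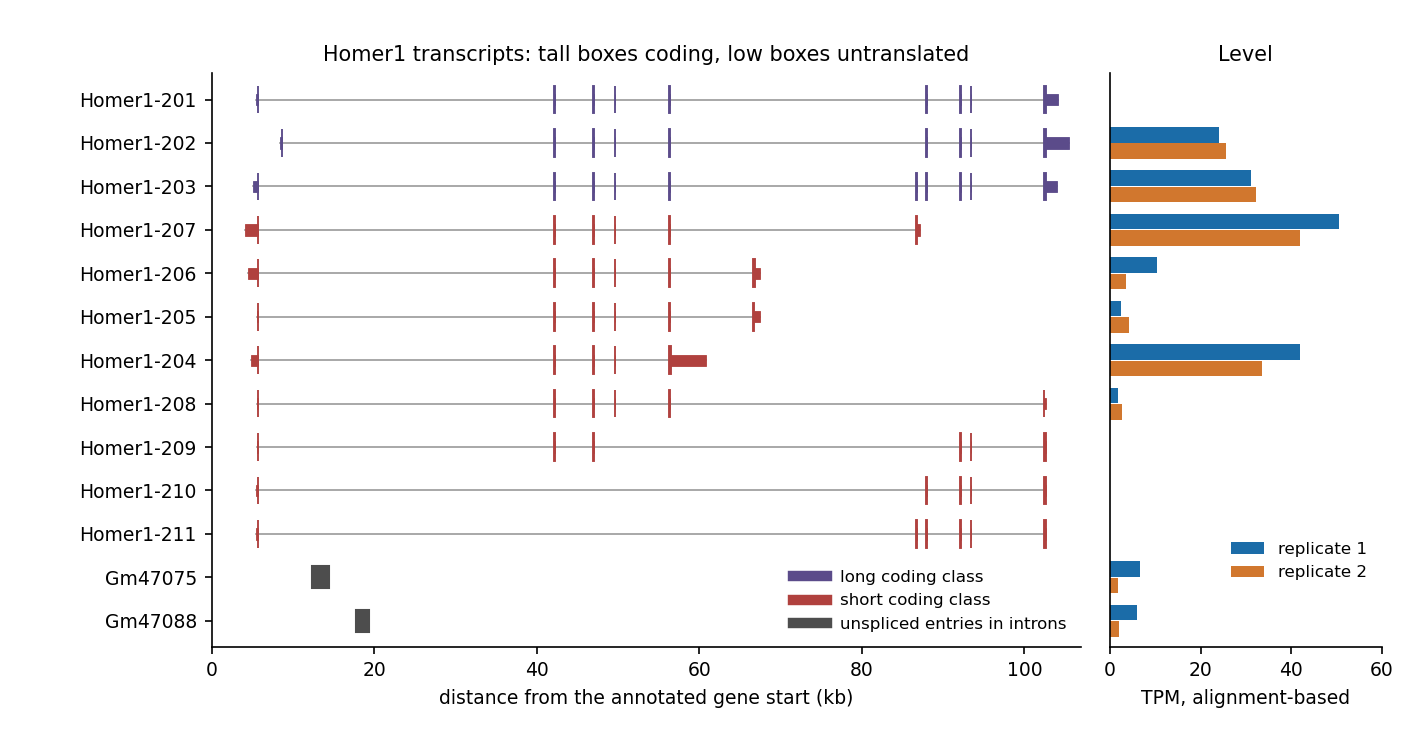
Left, the 11 coding Homer1 transcripts and 2 entries within the first intron, drawn to scale by distance in kb from the annotated gene start, with tall boxes for coding and low boxes for untranslated exon. Right, their alignment-based TPM in each library. Homer1-204, Homer1-205, Homer1-206 and Homer1-207 end before the last exons of the long forms, the other short models end in their last exon, and Homer1-207 has the longest bars, 50.53 and 41.92 TPM.

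**Figure D3:**
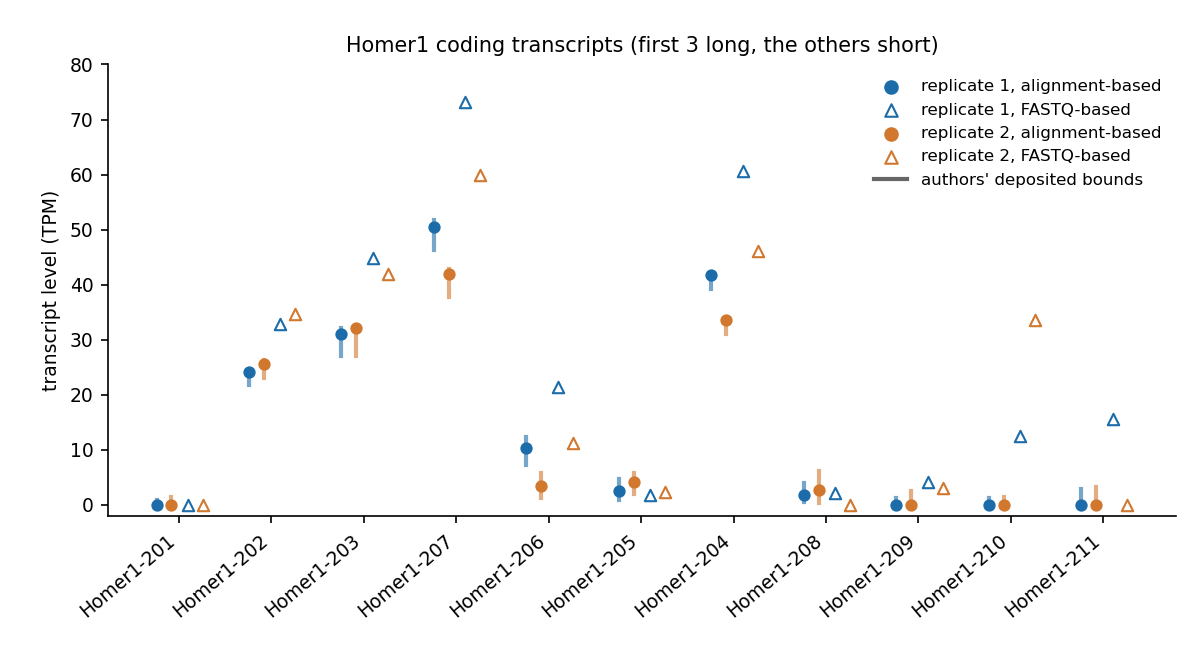
TPM of each coding Homer1 transcript in both libraries, with circles for the alignment-based value, vertical lines for the credibility bounds the authors deposited (their level is not stated, and they belong to another estimate than the point) and triangles for the FASTQ-based value. The circles of Homer1-202 and Homer1-203 nearly coincide between the libraries, those of Homer1-204 and Homer1-207 lie higher in replicate 1, and Homer1-210 and Homer1-211 have levels above 0 only in the FASTQ-based table.

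The ratio of short to long Homer1 TPM was 1.94 in replicate 1 and 1.48 in replicate 2. On the log2 scale these are 0.95 and 0.57, a difference of -0.39, which is 1.31-fold and under the 1.5-fold rule. The FASTQ-based ratios were 2.46 and 2.04, a difference of -0.27. Without Homer1-207 the ratios were 1.02 and 0.758. Over 1143 genes with both classes detected, 23.4% were at least 1.5-fold apart between the libraries in this ratio, and by FASTQ 32.3% of 1399 genes were. Their middle 50% spanned -0.25 to 0.32, and 17.8% of them lay at or below the Homer1 value. Shank2 was at 0.24 and Shank3 at -0.17 on the same scale, so none of the 3 genes with both classes passed 1.5-fold in the alignment-based table. By FASTQ, Shank2 was at 0.24 and Shank3 turned to 0.47.

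Most of Shank2 was divided about evenly between a pair of protein starts at different exons. The first coding bases of its 3 start groups are shown because the start sets which amino end the scaffold has. The start codon is in capitals, and all are on the plus strand of mm10.
Shank2-203, chr7:144031264-144031308: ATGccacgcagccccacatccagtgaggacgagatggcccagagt
Shank2-202, spliced between chr7:144175920 and 144179762: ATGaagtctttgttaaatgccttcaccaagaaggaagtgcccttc
Shank2-205, chr7:144284969-144285013: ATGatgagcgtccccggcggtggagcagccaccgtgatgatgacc
Shank2-203 codes the longest protein, 1841 residues, and was at 2.29 and 2.45 TPM, only 3.44 ± 0.158% of Shank2 (SD, n = 2). Shank2-202, 1472 residues, was at 31.36 and 31.84 TPM, or 45.9%. Shank2-201 and Shank2-205, of 1255 and 1262 residues, share the third start and together were at 29.58 and 35.65 TPM, or 47.1%. The class that Shank2-202, Shank2-201 and Shank2-205 fall into depends on the limit: the short share of Shank2 was 47.1% here, 0% with long defined from 60% of the longest coding length, 93.04% from 90% and 6.21% by transcript length. The FASTQ-based shares of the 3 starts were 2.95%, 48.1% and 45.8%. Between Shank2-201 and Shank2-205 the tables differed: Shank2-201 held 6.21% of the gene in the alignment-based table and 14.9% in the FASTQ-based one. Most Shank2 RNA thus came from the pair of downstream coding starts in both libraries, and the full-length start was the least used of the 3.

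Shank1 was made up mainly of long transcripts. Its 3 long forms, Shank1-201, Shank1-202 and Shank1-203, code 2158, 2159 and 2167 residues and held 85.3 ± 2.43% of Shank1 TPM, or 98.2% and 98.7% of its expected counts. Shank1-203 led with 52.6% of TPM, at 134.83 and 157.42. Shank1-201 was at 42.99 and 45.93 TPM, and Shank1-202 at 36.34 and 57.61 TPM, the widest of the 3 as a fold. The gene has no short coding model. Its retained intron Shank1-206 held 9.60% of TPM. The noncoding Shank1-205 held 3.74% in the alignment-based table and 27.4% in the FASTQ-based one, where it was at 152.2 and 121.6 TPM.

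Shank3 likewise ran mostly through its long forms. Shank3-201 (1730 residues) was at 32.30 and 35.90 TPM and Shank3-203 (1805 residues) at 34.11 and 34.51 TPM. Together they were 63.6 ± 1.30% of TPM (SD, n = 2) and 93.2% and 94.1% of expected counts. The FASTQ-based table gave the same pair 49.8% of TPM, with 37.3% in Shank3-203 and 12.5% in Shank3-201. The short Shank3-209, 382 residues, held 3.51%. Incomplete Shank3-207 held 13.7% and the retained intron Shank3-205 11.7%. The noncoding Shank3-206 held 4.02% by alignment and 13.2% by FASTQ, and the decay target Shank3-208 had 0 counts by alignment and 6.21% by FASTQ.

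Homer2 had no short coding model with long defined from 75% of the longest coding length. Homer2-201 (343 residues), Homer2-202 (290 residues, with the longest 3′ end) and Homer2-206 (354 residues) held 38.4%, 36.2% and 15.3% of its TPM. Their sum was 89.9 ± 0.581% of TPM (SD, n = 2), 98.1% of expected counts in each library and 72.0% in the FASTQ-based table. There the noncoding Homer2-208 took 22.7%, against 1.42% by alignment. The long share of Homer2 TPM was 53.7% with long defined from 90% of the longest coding length and 36.2% by transcript length. Homer2-202 formed a start group of its own, apart from Homer2-201 and Homer2-206. What this changes at its amino end was not tested.

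Homer3 was too low to divide well. Homer3-203 (359 residues) led at 1.86 and 2.95 TPM, from 91.0 and 121.0 expected counts. All long forms held 76.8% and 54.9% of its TPM. Of its expected counts they held 91.1% in replicate 1 (Wilson 95% interval 84.9 to 95.3%) and 80.7% in replicate 2 (73.6 to 86.2%). The retained intron Homer3-207 held 23.2% and 17.8%. Homer3-201 held 11.3% in replicate 1 and 0% in replicate 2, whereas the retained introns Homer3-205 and Homer3-208 held 0% in replicate 1 and 12.8% and 14.3% in replicate 2, each from fewer than 15 counts. The FASTQ-based table also gave 18.6% to Homer3-206 and 7.73% to the short Homer3-202, both at 0 counts by alignment. The gene overlaps Ddx49 on the opposite strand, which was at 18.55 and 22.2 TPM.

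The leading transcript differed between the quantifications in either library in 2 of the 6 genes, Shank3 and Homer2. Over 11708 genes, 34.4% differed in that way. In Shank3 the pair Shank3-201 and Shank3-203 changed places between the libraries in the alignment-based table. The FASTQ-based table put Shank3-203 first in both. In Homer2 the alignment-based table put Homer2-201 first and the FASTQ-based table Homer2-202.

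**Figure D4:**
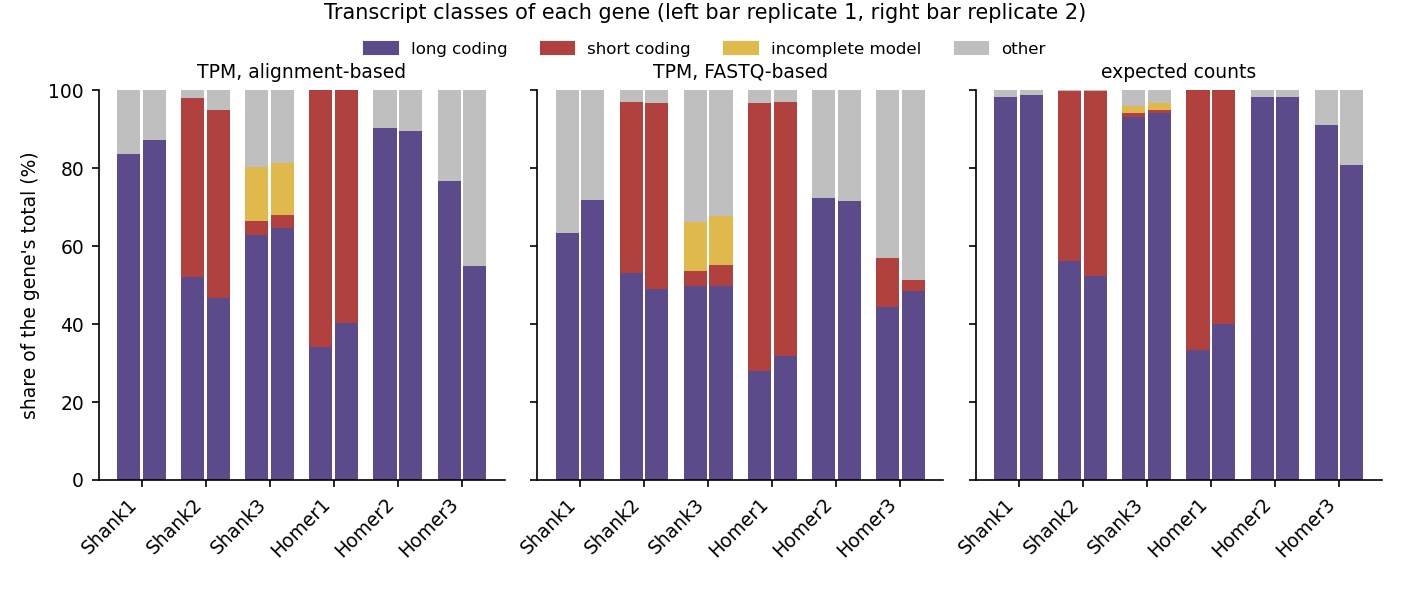
Share of each gene's TPM or expected counts in the long, short, incomplete and other transcripts, as stacked bars from 0 to 100%, with the left bar of each pair for replicate 1. Short coding transcripts fill most of the Homer1 bars (66.0% and 59.7% of alignment-based TPM) and 47.1% on average of the Shank2 bars. Except in Shank2, the other class is larger in the FASTQ-based table.

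Between the libraries, 5 of the 6 genes passed the minimum mean of 5 CPM (counts scaled to the library, with TMM library sizes), and none of them was 2-fold or 1.5-fold apart. Over all 11095 protein-coding genes at that minimum, 0.225% were 2-fold apart and 1.22% were 1.5-fold apart. Homer1 was 1.21-fold higher in replicate 1 (95% interval for counting error 1.18 to 1.24), from 12030 and 8851 expected counts. Shank1 was 1.13-fold higher in replicate 2 (1.12 to 1.15), from 38641 and 38973. The log2 difference, replicate 2 over replicate 1, was 0.05 for Shank2, -0.02 for Shank3 and 0.11 for Homer2. Homer3, below the minimum, was 1.45-fold higher in replicate 2 (1.13 to 1.87).

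The Homer1 difference was mainly in its short forms. In CPM, the short transcripts together were 1.34-fold higher in replicate 1 (1.30 to 1.39) and the long ones 1.01-fold (0.965 to 1.06). The FASTQ-based values were 1.36-fold and 1.04-fold. In that table Homer1-203 was 1.11-fold higher in replicate 1 (1.04 to 1.19), and Homer1-202 had a ratio of 0.990 (0.930 to 1.05). Homer1-209, Homer1-210 and Homer1-211 together had a ratio of 0.890 there (0.736 to 1.08). By form, Homer1a was 1.32-fold higher in replicate 1 (1.27 to 1.39), Homer1-207 1.28-fold (1.20 to 1.36) and the Ania-3 type pair 2.14-fold (1.84 to 2.48), which was 1.85-fold (1.64 to 2.09) by FASTQ. Within that pair Homer1-205 was lower in replicate 1, at a ratio of 0.642 (0.471 to 0.873), and Homer1-208 had a ratio of 0.681 (0.393 to 1.17). Of 17 protein-coding transcripts of the 6 genes at the CPM minimum, 1 was 2-fold apart, Homer1-206 at 3.15-fold higher in replicate 1 (2.62 to 3.79). Over all 14897 such transcripts 3.32% were. In the FASTQ-based table Homer1-206, at 21.5 and 11.3 TPM, was less than 2-fold apart. Homer1-206 has 0 bases of its own among the Homer1 transcripts and Homer1-205 has 35, so their values rest on the split of shared reads. With 1 library an animal, these intervals cover counting error only and carry no test.

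A pair of entries inside the first intron of Homer1 differed more than its short forms did together. Gm47075 (chr13:93312041-93314055) and Gm47088 (chr13:93317427-93319065) are unspliced entries on the Homer1 strand, of a class that the annotation lists for experimental follow-up. Neither overlaps an exon of a Homer1 transcript. They were looked at after their values were seen. Gm47075 had 262 counts in replicate 1 and 62 in replicate 2, 3.76-fold higher in replicate 1 (2.84 to 5.05). Gm47088 had 193 and 53, 3.24-fold higher in replicate 1 (2.38 to 4.48). The FASTQ-based values were 3.49-fold and 2.85-fold. Among 922 entries of that class at a mean of at least 1 CPM, 3.25% were 2-fold apart in either direction.

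Per length these intronic entries were at 6.57 and 6.02 TPM in replicate 1 and at 1.85 and 1.97 TPM in replicate 2. Homer1a, whose last 4383 bases lie in another intron of the long forms, was at 41.85 and 33.51 TPM. Whether reads of unspliced Homer1 RNA, which total RNA can hold, enter the levels of the short forms was not tested.

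The immediate early genes, the class to which Homer1a and Ania-3 belong, leaned the same way. Whether Homer1-207, the most abundant short form, belongs to that class was not tested. All 15 of the list were detected, and 5 were at least 2-fold and 11 at least 1.5-fold higher in replicate 1, with none 1.5-fold higher in replicate 2. The shares over all 11095 genes, in either direction, were 0.225% and 1.22%. The median was 24.37 TPM in replicate 1 and 14.47 TPM in replicate 2. Arc, which shapes AMPA receptor traffic, was at 85.48 and 35.40 TPM and Fos at 24.37 and 9.5 TPM, 2.56-fold and 2.75-fold higher in replicate 1 by CPM. Fosb, Egr2 and Npas4, all transcription factors, were 2.14-fold, 3.11-fold and 2.98-fold higher in replicate 1. The most abundant of the list, Plk2, Egr1 and Egr3, were at 102.4, 80.5 and 63.8 TPM on average, and of these Plk2 and Egr3 were only 1.06-fold and 1.08-fold higher in replicate 1. Striatal markers and the choroid plexus marker Ttr, 21.3-fold by CPM, were higher in the same library, and the part of tissue makeup in the Homer1 and immediate early gene values was not tested.

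**Figure D5:**
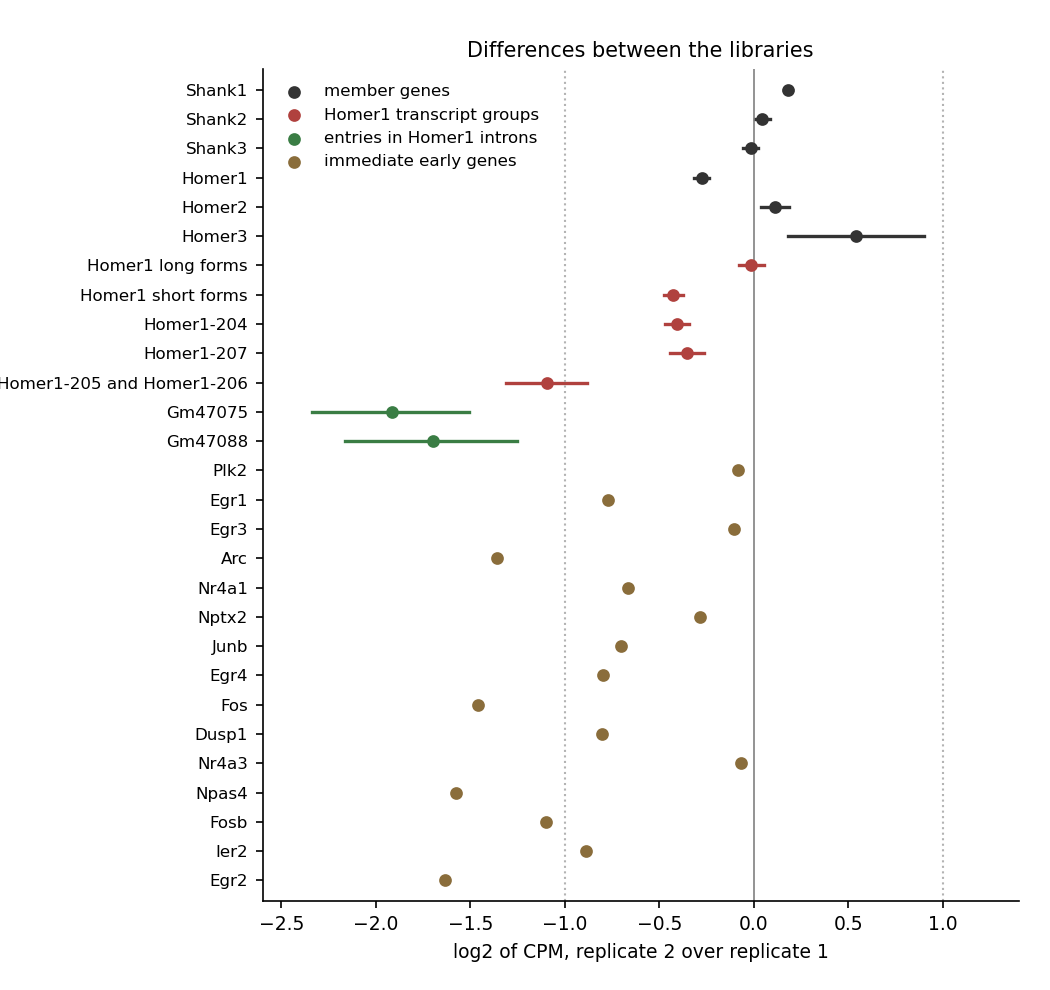
Log2 of CPM in replicate 2 over replicate 1 for the 6 genes, groups of Homer1 transcripts, the pair of entries in the first Homer1 intron and the 15 immediate early genes, with lines for 95% intervals of counting error and dotted lines at 2-fold. The long Homer1 forms lie at 0, the sum of the short forms to the left of it, higher in replicate 1, and the intronic entries farther left at -1.91 and -1.70.

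The genes of HOMER's partners were detected broadly, where 12933 of all 22015 nuclear protein-coding genes were detected. Of 13 genes whose proteins bind the HOMER EVH1 domain or act with it, 12 were detected, with a median of 19.84 TPM beside 16.02 TPM over all detected genes. Agap2, a GTPase that joins HOMER to PI3-kinase signalling, was highest at 312.6 ± 16.8 TPM (SD, n = 2). The IP3 receptor gene Itpr1 was at 172.1 ± 9.77, the glutamate receptor gene Grm5 at 90.3 ± 1.28 and the ryanodine receptor gene Ryr2 at 84.0 ± 9.38 TPM. None of the 13 was 1.5-fold apart between the libraries, where 1.22% of all 11095 genes at the CPM minimum were.

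All 15 genes of SHANK partners were detected, beside the same 12933 of 22015 genes, with a median of 63.76 TPM. Sptan1, alpha-II spectrin, was at 411.9 ± 2.70 TPM (SD, n = 2), Dlgap1 at 195.7 ± 17.6, the latrophilin gene Adgrl1 at 194.8 ± 7.88 and Dlgap3 at 177.9 ± 5.26 TPM. Per length, Dlgap1 and Dlgap3, which tie SHANK to PSD-95, were thus between Shank1 and Homer1 in level. None of the 15 was 1.5-fold apart between the libraries, beside the same 1.22% of all 11095 genes.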

How the data were processed

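Per the accompanying deposited description, the authors quantified each library by alignment and directly from FASTQ reads on mm10 with GENCODE M21 (tool names: not given in the sources used here). From the alignment they deposited, for each gene and transcript, an expected count and TPM, and the percent of a gene's TPM per transcript. Their deposited credibility bounds of TPM are a signal on the TPM scale. From the FASTQ reads they deposited, for each transcript, an estimated count and TPM, summed here per gene. Numbered entries without a gene name (26248, at 6.39e-06% and 1.81e-05% of expected counts) were left out, and spike-ins and controls took 0.350% and 0.378%.

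Expected counts were rounded for TMM factors (0.987 and 1.01; edgeR 4.0.16, R 4.3.3), with DESeq2 1.42.0 size factors as an alternative scaling. Classes, coordinates and sequences came from GENCODE M21. CPM ratios have exact conditional 95% intervals, and shares of counts Wilson 95% intervals. Both cover counting error only. A count of 0 allows 3 counts, 0.0962 and 0.111 CPM. No test was run: an exact sign-flip test of 2 values cannot go below p = 0.5. The scaling and the 2-fold rule were tested on simulated data. The members, gene lists and rules were chosen with earlier results of these data known. Named genes are the 6 members, transcripts with at least 5% of their gene, all short Homer1 transcripts, the top 4 of each partner list and those past 2-fold. Other annotated genes that overlap the 6 are named for Homer1 and Homer3 only. Alternatives were the FASTQ-based table, CPM, added pseudocount, other class limits, other scaling and leaving out a library.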

Additional observations from a re-analysis of the deposited data

How the results depend on the processing

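The order of the 6 genes in TPM and the direction of all 6 paralog ratios held in both quantifications and in either library alone; in CPM of replicate 2 Homer1 fell behind Shank3 and Shank2. Without length correction the log2 ratios became 1.96 for Shank1 over Shank3, 0.035 for Shank3 over Shank2, 1.81 for Homer1 over Homer2, 6.29 for Homer1 over Homer3 and 4.48 for Homer2 over Homer3. The FASTQ-based table gave 2.31 for Shank1 over Shank2 and 0.82 for Shank3 over Shank2. The short share of Homer1 was 58.4% with long defined from 60% of the coding length and 46.9% without Homer1-207. The Homer1 short over long log2 ratio was 1.16 in the FASTQ-based table. It turned to -0.18 without Homer1-207 and to -0.59 with Homer1-204 as the only short form, both alternatives chosen after the data were seen, and in the FASTQ-based table without Homer1-207 it stayed above 0 at 0.47. Partner list medians by FASTQ were 28.2 TPM for HOMER, 145.1 TPM for SHANK and 29.7 TPM for immediate early genes, where the median of all detected genes was 24.9 TPM. The HOMER partner median ranged from 19.81 to 20.74 TPM with either library left out. The cause of these changes was not tested. No paired analysis was possible because the 2 libraries form a single group. Depth limits Homer3, at 116 and 150 counts, and the division of every gene among transcripts rests on each quantification's split of shared reads.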
